A study of Homo sapiens with 4 samples.

Results

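The secreted WNT pathway proteins followed in the human ATOH1 lineage were the ligands WNT1, WNT4, WNT10A and WNT10B, the R-spondin RSPO3 and the inhibitor SOST. They are 6 of the 1647 genes that could be tied to a gene symbol in these data, all of which had passed the study's own test. The 6 were chosen by name, with earlier results of these data known. All 6 were more abundant in the messenger RNA bound to tagged ribosomes of the ATOH1 lineage than in the input. The excess ran from 11.4-fold for RSPO3 to 198-fold for WNT10A in mean CPM (counts scaled to library size). The size and order of these differences changed where a constant was added to the levels before taking logs. The single input carried another name tag than the IP libraries, so these ratios cannot be read as enrichment over a matched input.

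WNT ligands are lipid-modified secreted glycoproteins that bind Frizzled receptors together with the co-receptors LRP5 and LRP6, and in the canonical branch stabilise beta-catenin, which then acts with TCF/LEF factors in the nucleus. R-spondins are secreted agonists that bind LGR receptors and keep Frizzled receptors on the cell surface, while sclerostin, the product of SOST, binds LRP5 and LRP6 and blocks them. In the developing hindbrain WNT1 is best known from the midbrain-hindbrain boundary and the dorsal midline, near the rhombic lip from which ATOH1-positive granule cell progenitors arise.

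The cells were of RUES2, a human embryonic stem cell line, and carried a transgene in which the human ATOH1 enhancer drives EGFP fused to the ribosomal protein L10a. All libraries came from cultures differentiated toward cerebellar granule cells for 28 days with puromycin in the medium, dual SMAD inhibition (SB431542 and LDN-193189) on days 0 to 7, CHIR99021 on days 1 to 11, FGF2 on days 1 to 28, BMP7 on days 7 to 15 and BDNF on days 11 to 28. CHIR99021 inhibits GSK3 and thereby activates the canonical WNT pathway, and IP and input cells alike had received it. Translating ribosome affinity purification (TRAP) with the GFP antibodies 19C8 and 19F7 gave 3 immunoprecipitates (IPs), from 3 independent differentiation experiments, and 1 input library was sequenced beside them, which the study also calls unbound. The IP libraries held 34603230 to 37719839 estimated counts and the input 41173019. Log2 CPM correlated at r = 0.962 to 0.972 between IP libraries and at r = 0.826 to 0.831 between an IP and the input, over 9698 genes and transcripts above 10 CPM in every library.

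The title of the input sample and the deposited pairing of libraries with samples, called the labels' tie here, named different libraries as the input. The input was taken to be the library whose tag the title of the input sample carries, and the 3 libraries with the other tag as the IPs. With that input 1697 of 1998 genes of the study's gene table matched the files in mean count and fold change. With each other library as input 1 to 4 matched. The scaling had been fitted with the chosen input and was kept for the others, so the comparison was not an even one. With the files as the labels tie them, none of the 6 genes passed the test and their log2 fold changes ran from -1.15 to -0.365. Whatever the differing tags stand for cannot be told apart from the effect of the purification. In bulk RNA, more cells of a type and more ribosome-bound RNA per cell cannot be told apart either.

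Upstream stretches of 3 genes are printed here, because the ligands and the modulators differed in base composition just before their start sites. RefSeq sequences (GRCh38.p14) were found for 5 of the 6 genes, WNT1, WNT4, WNT10A, RSPO3 and SOST. Each stretch is the 250 bases before the annotated start on the strand of the gene, 5′ to 3′, and capitals mark CG dinucleotides. WNT1 lies on the plus strand (chr12:48978072-48978321), WNT4 on the minus strand (chr1:22143098-22143347) and SOST on the minus strand (chr17:43758792-43759041).
WNT1: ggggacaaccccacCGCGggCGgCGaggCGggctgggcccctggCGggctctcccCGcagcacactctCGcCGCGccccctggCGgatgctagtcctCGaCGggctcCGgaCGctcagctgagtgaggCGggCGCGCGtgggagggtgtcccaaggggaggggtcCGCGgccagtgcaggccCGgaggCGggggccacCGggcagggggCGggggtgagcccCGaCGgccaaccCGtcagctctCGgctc
WNT4: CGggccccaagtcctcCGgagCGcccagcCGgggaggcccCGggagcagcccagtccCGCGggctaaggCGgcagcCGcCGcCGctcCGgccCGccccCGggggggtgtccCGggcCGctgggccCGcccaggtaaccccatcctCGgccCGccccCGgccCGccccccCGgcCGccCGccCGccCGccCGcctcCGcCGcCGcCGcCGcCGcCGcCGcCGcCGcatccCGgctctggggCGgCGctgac
SOST: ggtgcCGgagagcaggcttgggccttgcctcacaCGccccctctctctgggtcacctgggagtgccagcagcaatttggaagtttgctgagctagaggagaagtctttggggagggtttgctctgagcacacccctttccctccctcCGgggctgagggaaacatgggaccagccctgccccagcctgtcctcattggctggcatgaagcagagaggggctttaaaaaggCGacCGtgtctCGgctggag

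The 3 ligand stretches were the richer ones in G and C. WNT4 held 86.8% G and C with 40 CG dinucleotides, WNT1 78.4% with 29, and WNT10A 77.6% with 24. RSPO3 held 64.8% with 8 CG dinucleotides and SOST 61.2% with 6. Over the 35116 stretches of this length in the table, the median was 58% G and C and 11 CG dinucleotides, and the 90th percentile of G and C was 75.2%. The E-box CAGCTG, a core bound by many basic helix-loop-helix factors, was in the stretch of 1 of the 5 genes, WNT1, at bases -135 to -130, and 14% of all stretches held it. The E-box CAGATG (on either strand; in 12.2% of all stretches), the TCF/LEF cores CTTTGA (11.2%) and CTTTGT (13.7%) and TATAAA (10.7%) were in none of the 5. A match of letters is no evidence of a factor bound there, and a lack of one in this window says nothing about the factor.

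WNT1, which patterns the midbrain-hindbrain boundary and the dorsal neural tube, had 1764, 2288 and 1939 estimated reads in IP replicates 1, 2 and 3 and 12 in the input. In CPM it was at 49.3, 62.0 and 52.5 in the IPs, against 0.297. Every IP library was at least 166 times the input, so the groups did not come near each other. The ratio of the IP mean to the input was 184, and the Poisson interval of the 12 input reads (95%, counting error only) put it between 105 and 356. The log2 fold change was 7.51 (standard error 0.34, edgeR quasi-likelihood test with Benjamini-Hochberg adjustment, adjusted p = 0.0161). The gene lies on GRCh37, the build of the files, at chr12:49372105-49376403 on the plus strand.

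WNT10A, a ligand known from hair, tooth and skin appendage development, had 724, 814 and 607 reads in the IPs and 4 in the input. In CPM it was at 20.2, 22.1 and 16.4 in the IPs, against 0.0988. No IP library was below 166 times the input. Its ratio of 198 rested on the fewest input reads of the 6 genes, and the interval of those reads reached from 77.3 to 726.5. The log2 fold change was 7.58 (standard error 0.52, adjusted p = 0.0224, edgeR). It lies at chr2:219745574-219764303 (GRCh37, plus strand).

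WNT10B, the close paralog of WNT10A, had 1102, 682 and 835 reads in the IPs against 24 in the input. In CPM it was at 30.8, 18.5 and 22.6 in the IPs, against 0.593. Replicate 1 was the highest and replicate 2 the lowest, a spread of 1.67-fold, and the lowest was still 31.2 times the input. The ratio of means was 40.4, with an interval of 27.1 to 63.0 from the input reads, and the log2 fold change was 5.33 (standard error 0.54, adjusted p = 0.0329, edgeR). WNT10B lies beside WNT1 on the opposite strand, at chr12:49359123-49365518 (GRCh37), with 6586 bases between the starts of the annotated genes, which point away from each other.

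WNT4, a ligand with canonical and non-canonical activity, had 2043, 1527 and 1286 reads in the IPs and 66 in the input. In CPM it was at 57.0, 41.4 and 34.8 in the IPs, against 1.63. Replicate 1 stood above the other two, and no IP library was below 21.3 times the input. The ratio of means was 27.2 (interval 21.4 to 35.2), and the log2 fold change was 4.76 (standard error 0.46, adjusted p = 0.0308, edgeR). The gene lies at chr1:22443806-22470462 (GRCh37, minus strand).

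RSPO3, the R-spondin that amplifies WNT signals through LGR receptors, was the most abundant of the 6 in every library. It had 20391, 17625 and 16888 reads in the IPs and 1778 in the input, or 569, 477.5 and 457 CPM against 43.9. The IP libraries were within 1.25-fold of one another, and the lowest was 10.4 times the input. The ratio of means was 11.4 (interval 10.9 to 11.96). The log2 fold change was 3.51 (standard error 0.21, adjusted p = 0.0197, edgeR). It lies at chr6:127439816-127520626 (GRCh37, plus strand).

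SOST, best known as the inhibitor that osteocytes release in bone, had 5530, 5226 and 5817 reads in the IPs and 177 in the input. In CPM it was at 154, 142 and 157 in the IPs, against 4.37. It varied least of the 6 genes among the IPs, with a coefficient of variation of 5.55%, and the lowest IP was 32.4 times the input. The ratio of means was 34.6 (interval 29.8 to 40.3). The log2 fold change was 5.11 (standard error 0.18, adjusted p = 0.0161, edgeR). It lies at chr17:41831106-41836159 (GRCh37, minus strand).

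All 6 genes thus passed the test as higher in the IPs, and none as lower. Of the 43828 genes and transcripts tested, 2.30% passed as higher and 1.48% as lower. Of the 1647 genes with a symbol, 29.1% passed as higher and 27.0% as lower. These genes come from the rows of the study's gene table given here, all of which had passed the study's own test. Each symbol was tied to its transcripts through the mean count and fold change of that table, so the direction of each gene was part of its naming. ATOH1, whose enhancer drives the tag, had 935, 1330 and 1228 reads in the IPs against 7, and its log2 fold change was 7.50 (standard error 0.45, edgeR adjusted p = 0.0197). The ratios of WNT1 and WNT10A, 184 and 198, stood beside 184 for ATOH1, whose input reads allow 89.2 to 457. The intervals of WNT1, WNT10A and ATOH1 overlap one another, and the interval of RSPO3 lies below those of the other 5 genes.

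The calls depended on the number of IP libraries and, as given at the end for limma-voom, on the test used. Without IP replicate 1, 2 or 3 the log2 fold changes of the 6 genes stayed between 3.41 and 7.69, but the adjusted p rose to between 0.106 and 0.194 and edgeR called 0 of 6 and 0 features in all, with 6705 to 7943 features and all 6 genes at an unadjusted p under 0.05. The spread came from the 3 IPs and the single input was assumed to vary like them. On a log2(TPM + 1) scale the 6 genes passed with limma-trend, but the log2 fold changes shrank to 3.42 for WNT10A, 4.70 for WNT1, 3.30 for WNT10B and 3.15 for WNT4, beside 4.38 for SOST and 3.17 for RSPO3, so that RSPO3 was no longer the smallest.

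**Figure D1:**
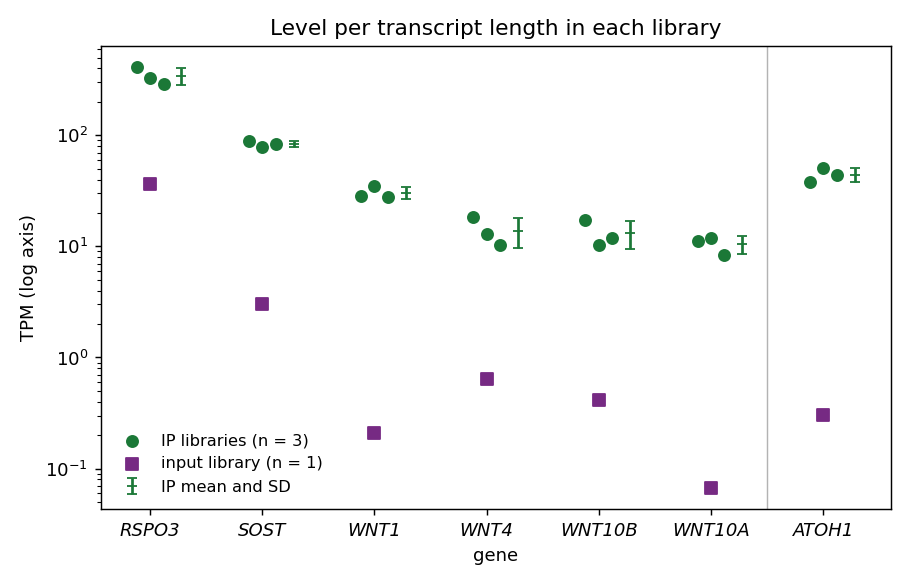
TPM of the 6 genes and ATOH1 on a log axis, with the 3 IP libraries as circles, their mean and SD beside them, and the single input as a square. RSPO3 is the highest in both kinds of library (343 TPM in the IPs on average, 36.8 in the input), and in each gene the 3 IPs lie above the input.

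TPM values take transcript length into account and so allow levels of different genes to be compared. RSPO3 averaged 343 ± 61.8 TPM over the IPs (SD, n = 3), SOST at 83.7 ± 4.90 and WNT1 at 30.5 ± 3.86. WNT4 was at 13.9 ± 4.13 TPM, WNT10B at 13.3 ± 3.74 and WNT10A at 10.5 ± 1.87. The steps from RSPO3 to SOST (4.10-fold), from SOST to WNT1 (2.75-fold) and from WNT1 to WNT4 (2.19-fold) were larger than the range of the replicates. WNT4, WNT10B and WNT10A overlapped in their replicate ranges and could not be ordered. ATOH1 itself was at 44.2 ± 6.42 TPM, between SOST and WNT1.

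In the input the levels ran in another order. RSPO3 was at 36.8 TPM, SOST at 3.05, WNT4 at 0.639, WNT10B at 0.412, WNT1 at 0.209 and WNT10A at 0.0666. RSPO3 and SOST stood apart from the rest by more than the counting error of their reads, while the intervals of neighbours from WNT4 to WNT10A overlapped. Among the 1647 genes with a symbol, RSPO3 ranked 194, 231 and 241 by TPM in the IPs and 922 in the input. WNT1 ranked between 712 and 807 in the IPs but only 1634 in the input. The ranked genes had all passed the study's own test, so these are not places among all genes.

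**Figure D2:**
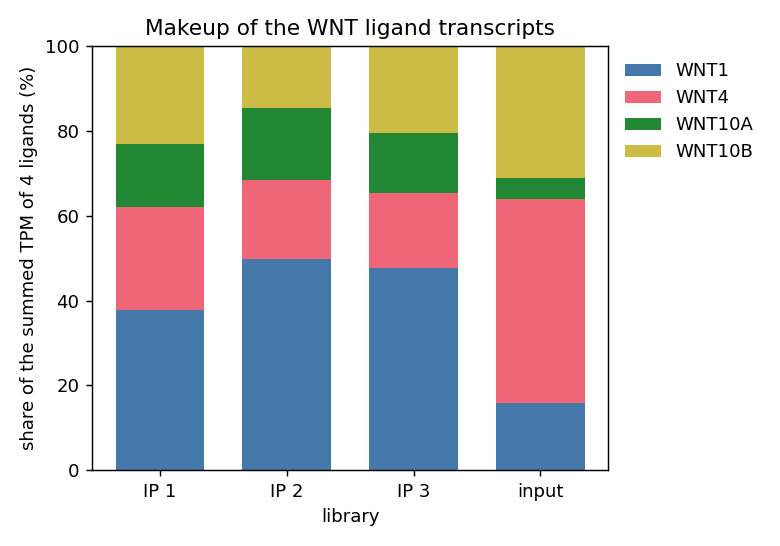
Share of WNT1, WNT4, WNT10A and WNT10B in their summed TPM, as stacked bars for the 3 IP libraries and the input. WNT1 holds 37.8% to 49.8% in the IPs and 15.7% in the input, where WNT4 holds 48.2%.

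The makeup of the 4 ligands differed between IPs and input. WNT1 made up 37.8%, 49.8% and 47.7% of their summed TPM in IP replicates 1, 2 and 3 and 15.7% in the input. WNT4 made up 24.3%, 18.5% and 17.6% in the IPs, against 48.2% in the input. WNT1 held the largest share of the 4 in each IP library. In the input WNT4 did, but its interval overlapped that of WNT10B, and the summed TPM of the 4 was 1.33 there against 58.6 to 75.7 in the IPs. WNT2B, a ligand outside these 4, was at 1.06 TPM in the input, above WNT4, and at 8.28 in the IPs. The 6 genes together held 0.0912%, 0.0764% and 0.0726% of all reads of the IPs, against 0.00501% of the input. RSPO3 took 61.7% to 64.6% of these reads in the IPs and 86.3% in the input.

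**Figure D3:**
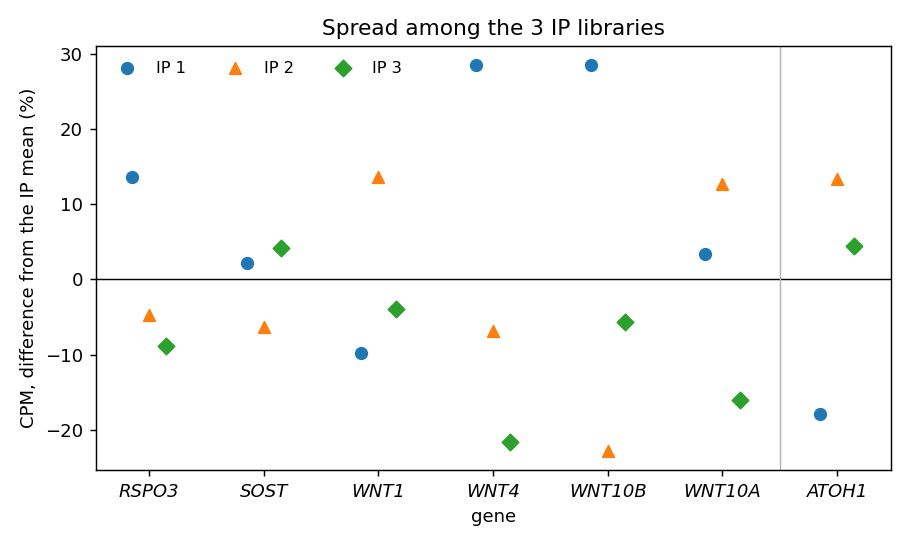
Difference of each IP library from the mean CPM of the 3 IPs, in percent, for the 6 genes and ATOH1. WNT4 and WNT10B are highest in replicate 1 (28.5% above the mean), while WNT1, WNT10A and ATOH1 are highest in replicate 2.

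The 6 genes did not vary together among the IPs. WNT4 was 28.5% above its mean in replicate 1 and 21.7% below it in replicate 3, and WNT10B 28.5% above it in replicate 1 and 22.8% below it in replicate 2. RSPO3 was also highest in replicate 1, at 13.6% above its mean. WNT1 (13.6% above its mean), WNT10A (12.7%) and ATOH1 (13.4%) were highest in replicate 2, and SOST in replicate 3 (4.13%). The coefficients of variation were 26.1% for WNT10B, 25.8% for WNT4, 14.7% for WNT10A, 12.1% for WNT1 and 11.95% for RSPO3. Each was 3.93 to 16.2 times what counting error alone would give for that number of reads.

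WNT10B, RSPO3 and WNT4 rested on 2 transcripts each, and the others on 1. The longer RSPO3 transcript (2141 bases) took 73.7%, 79.6% and 80.6% of the gene's estimated reads in the IPs and 82.6% in the input, where the exact binomial interval was 80.8% to 84.4%. Replicate 3, with an interval of 80.0% to 81.2%, overlapped the input, so the split did not separate the groups. The longer WNT10B transcript (2369 bases) took 73.1%, 52.5% and 48.3% of the reads in the IPs. Its share in the input, 62.5% with an interval of 40.6% to 81.2%, lay within that range. With each transcript tested on its own, the WNT10B transcript with the most reads missed the threshold (adjusted p = 0.0659, edgeR) and the leading transcripts of the other 5 genes passed. WNT4 reads went to 1 transcript of 3905 bases in all libraries but IP replicate 2, where the other took 3.67%. Such splits are estimates by the quantification, and the intervals cover counting error only.

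**Figure D4:**
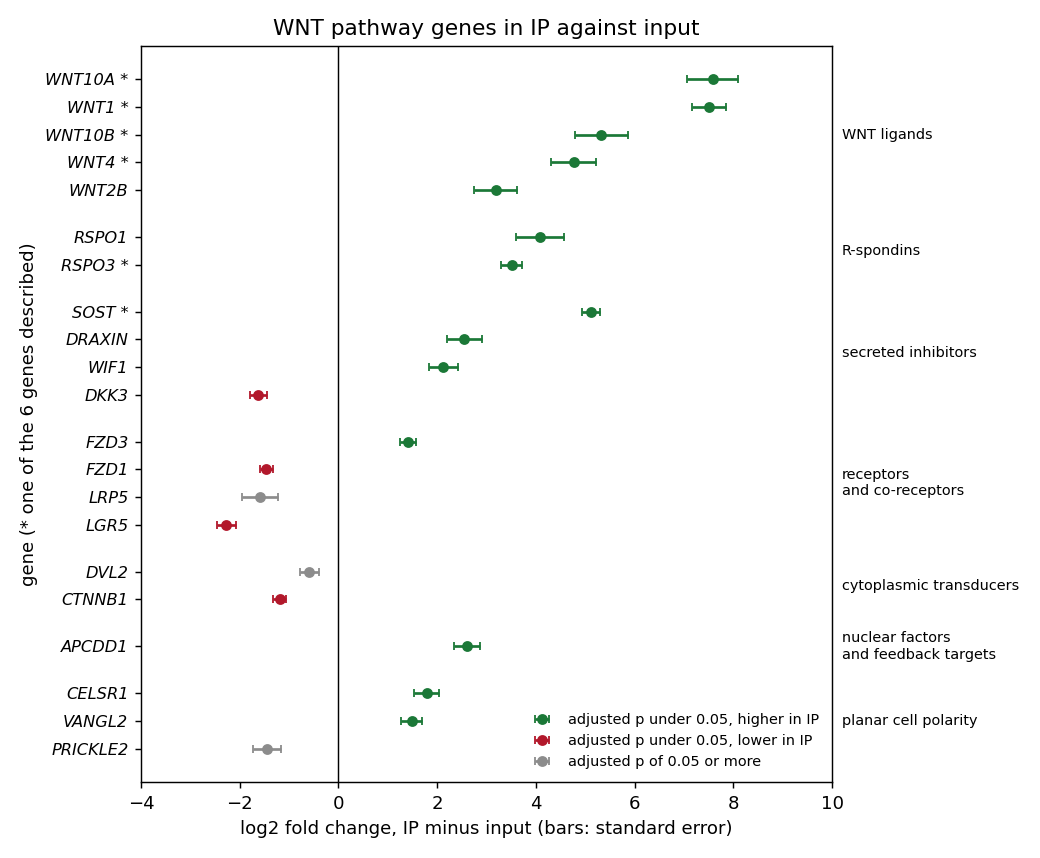
Log2 fold change (IP minus input, with standard errors) of the 21 genes of a WNT pathway list that could be tied to a symbol, grouped by role, with the 6 genes starred. The WNT ligands and R-spondins with a symbol, 5 of 19 and 2 of 4 listed, all lie above 0, while receptors and inhibitors lie on both sides.

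The rest of the pathway was described from a list of 94 WNT genes, of which 21 could be tied to a symbol, these 6 included. Among the other 15, 8 passed the test as higher in the IPs, 4 as lower and 3 did not pass, with a median log2 fold change of 1.40 against 0.799 over all genes with a symbol and 0.0982 over all features tested. Over all genes with a symbol 29.1% passed as higher and 27.0% as lower, and 4 of 15 is close to the latter share. The other 73 genes were not analysed here. Being drawn from genes the study had called, these counts do not describe the pathway as a whole.

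Of the ligands and agonists, 2 more were higher. WNT2B had 432, 458 and 572 reads in the IPs against 59, and rose by 3.19 on the log2 scale (standard error 0.44, edgeR adjusted p = 0.0448). It rests on 3 transcripts, and the one with the most reads, tested on its own, gave 6.54. RSPO1, the paralog of RSPO3, had 1700, 1101 and 1052 reads against 84, and rose by 4.08 on the same scale (standard error 0.49, edgeR adjusted p = 0.0394). The 5 ligands and 2 R-spondins with a symbol, of 19 and 4 listed, were therefore all higher in the IPs. Over all genes with a symbol, 29.1% passed as higher. WNT1, WNT4, WNT10A, WNT10B and RSPO3 among them were chosen with earlier results of these data known, so the shared direction is no separate result. At 15.6 ± 5.44 TPM (SD, n = 3) in the IPs, RSPO1 was far below RSPO3.

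The secreted inhibitors were mixed. Beside SOST, WIF1, which binds WNT ligands directly, was higher in the IPs (860, 1040 and 816 reads against 230; log2 fold change 2.12, adjusted p = 0.0455, edgeR). DRAXIN, a secreted axon guidance protein that also antagonises WNT signals, was higher too (758, 708 and 593 reads against 130; log2 fold change 2.55, adjusted p = 0.0468). DKK3, a divergent member of the Dickkopf family, was lower (3391, 3492 and 2754 reads against 10950; log2 fold change -1.62, adjusted p = 0.0357). In TPM the 4 inhibitors with a symbol summed to 141 to 167 in the IPs and 176.5 in the input, where DKK3 alone held 166.3.

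Receptors moved in both directions. FZD3, a Frizzled known for axon tract formation and planar polarity, was higher (log2 fold change 1.40, adjusted p = 0.0368, edgeR). FZD1 (log2 fold change -1.46, adjusted p = 0.0291) and LGR5, an R-spondin receptor (-2.27, adjusted p = 0.0291), were lower. LGR5 had 364, 369 and 372 reads in the IPs and 1973 in the input, the opposite direction to its ligand RSPO3. The co-receptor LRP5, to which sclerostin binds, had 1417, 1385 and 793 IP reads against 4016 and missed the threshold (log2 fold change -1.60, adjusted p = 0.108).

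CTNNB1, which encodes beta-catenin, was lower in the IPs (4013, 4844 and 4835 reads against 11528; log2 fold change -1.19, adjusted p = 0.0378, edgeR). DVL2, a Dishevelled that relays the Frizzled signal, did not pass (log2 fold change -0.594, adjusted p = 0.206), but passed with DESeq2 without a length offset (-0.637, adjusted p = 0.00936) and with one (-1.13, adjusted p = 3.68e-05). APCDD1, a membrane inhibitor that is induced by the pathway, was higher (33989, 27687 and 24846 reads against 5243; log2 fold change 2.61, adjusted p = 0.0330). Of the planar cell polarity genes, CELSR1 (log2 fold change 1.79, adjusted p = 0.0468) and VANGL2 (1.49, adjusted p = 0.0479) were higher, and PRICKLE2 did not pass (-1.45, adjusted p = 0.0785). With DESeq2, LRP5 and PRICKLE2 passed as lower, at -1.64 and -1.49.

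Markers of cell types moved between IPs and input as well. A marker could have a symbol only where the study's own test had passed it, so these counts do not describe the full lists. Over all genes with a symbol, 29.1% passed as higher in the IPs and 27.0% as lower. Of 9 granule cell progenitor and rhombic lip markers, 7 had a symbol and all 7 were higher in the IPs. These were ATOH1, OLIG3, NHLH1, HES6, BARHL1, INSM1 and MEIS2. Their summed TPM was 1013 to 1526 in the IPs and 48.6 in the input. Most of the IP sum was HES6, at 1352, 980 and 837 TPM in IP replicates 1, 2 and 3 and 22.5 in the input. ATOH1 itself was at 37.8 to 50.6 TPM in the IPs. Of 12 roof plate and choroid plexus markers, 4 had a symbol, and their summed TPM was 337 to 478.5 in the IPs and 521 in the input. MSX1, a roof plate factor, was higher (log2 fold change 2.72, adjusted p = 0.0364, edgeR) and MSX2 lower (-1.40, adjusted p = 0.0220). LMX1A, the other roof plate factor with a symbol, had 259, 652 and 473 IP reads against 98 and missed the threshold (adjusted p = 0.172). AQP1 of the choroid plexus had 71 to 123 reads in the IPs and 649 in the input (adjusted p = 0.0770).

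Of 13 vessel and mesenchyme markers, 4 had a symbol, DCN, COL1A1, ADGRL4 and TM4SF1, and the others were not analysed. None of the 4 was higher and 3 were lower, where 27.0% of all genes with a symbol passed as lower. DCN did not pass. Their summed TPM was 277 to 313.5 in the IPs and 1731 in the input. The neural crest markers with a symbol, 2 of 9 listed, lay on opposite sides of the input and summed to 151 to 158 TPM in the IPs and 317 in the input. SNAI2, a zinc-finger factor of migrating crest cells, was lower (log2 fold change -0.94, adjusted p = 0.0397, edgeR), while NGFR, a neurotrophin receptor, was at 26.5 to 34.6 TPM in the IPs and 18.4 in the input and missed the threshold (log2 fold change 1.10, adjusted p = 0.0569). SPRY4 alone represented 11 isthmus and midbrain-hindbrain boundary markers, at 2.30 to 2.98 TPM in the IPs and 37.5 in the input. The part of these cell types in the levels of the 6 genes was not tested.

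The genes whose 4 values lay nearest to those of each gene were sought among the other 1646 genes with a symbol, by the Euclidean distance in log2(CPM + 0.5). Nearest to WNT1 were HOXA9 (distance 0.462) and NHLH1 (0.761), the latter a basic helix-loop-helix gene of newborn neurons. HOXA9, a homeobox gene known from posterior axial levels, had 2149, 2441 and 2388 reads in the IPs and 8 in the input. SHD (0.167) and PPP1R17 (0.541) were nearest to WNT4. TMEM176B and ALKAL2 (0.781 each) were nearest to WNT10A, and CHRNB4 (0.643) and ALKAL2 (0.662) to WNT10B. The log2 fold changes of TMEM176B and ALKAL2 were 5.91 and 5.47, against 7.58 for WNT10A. The input value of WNT10A, 0.0988 CPM, lies below the added 0.5. For RSPO3 these were YEATS2 (0.744) and MSX1 (0.803). INSM1, a zinc-finger factor of neurogenic progenitors, was among the nearest to SOST (1.25). A distance over 4 values sets level and difference together and describes likeness in these libraries only.

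**Figure D5:**
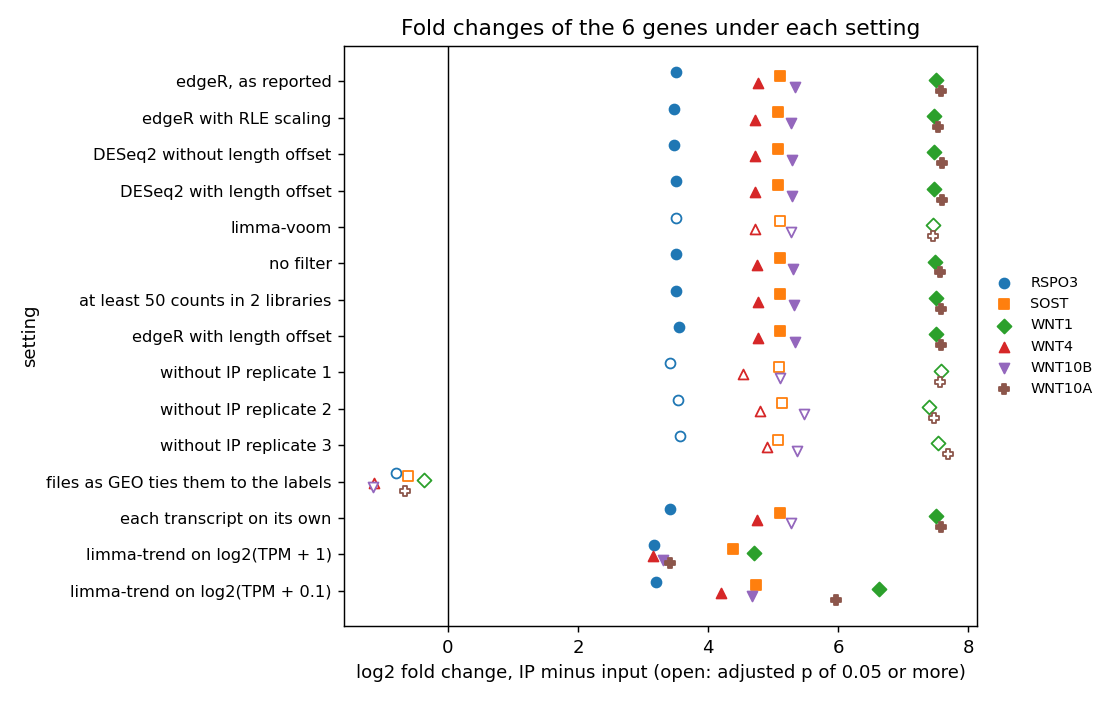
Log2 fold change of the 6 genes under the reported test and 14 alternatives, with filled symbols where the adjusted p was under 0.05. In every alternative but the labels' own tie of files to samples the 6 values lie above 3.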

How the data were processed

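SMART-Seq v4 cDNA was made into Nextera XT libraries by the authors, sequenced as 75 bp single reads and quantified with Salmon 0.8.2 on UCSC hg19. They deposited estimated counts and TPM of 69548 transcripts per library, and the authors then used DESeq2 1.20.0 for gene values. The authors' comparison columns were used only to tie transcripts to symbols. Sums of 1 to 20 neighbouring transcripts were accepted where the recomputed log2 fold change lay within 1e-05 and the mean count within 2% of a gene row. Of 1697 matches, 44 with several solutions, 2 sharing a transcript and 4 out of chromosomal order (GENCODE v44lift37) were dropped, leaving 1647.

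Counts of each such gene were summed, other transcripts kept on their own and values rounded. edgeR 4.0.16 in R 4.3.3 was run with TMM, filterByExpr at a minimum count of 10, and quasi-likelihood tests, whose p-values were adjusted by Benjamini-Hochberg across every feature (threshold 0.05). Standard errors are the log2 fold change divided by the root of the F statistic. CPM use TMM library sizes. Intervals (95%) are Poisson for single counts and exact binomial for shares, and cover counting error only. Reads carry no molecular identifiers and need not be independent molecules, so the intervals may be too narrow. The code was tested on simulated counts in which the input was made to vary like the IPs, so that assumption was not tested. Alternatives used DESeq2 1.42.0, limma 3.58.1, other filters, scalings, libraries and TPM.

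Genes named were the 6 genes, genes of a WNT list with a symbol, markers, ATOH1 and, for each of the 6, its 2 nearest genes, of which 1 is not reported here. The 6 genes and all lists were chosen with earlier results of these data known. RefSeq upstream sequences are on GRCh38.p14 and gene positions on GRCh37.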

Additional observations from a re-analysis of the deposited data

How the results depend on the processing

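All 6 genes passed as higher in the IPs with edgeR under RLE scaling, either filter or the length offset, with DESeq2 and with limma-trend, and 5 passed with each transcript on its own. With limma-voom 0 of the 6 genes, 0 WNT list genes in either direction and 0 features passed (10198 features and all 6 genes were at an unadjusted p under 0.05), with log2 fold changes of 7.46 for WNT1, 4.72 for WNT4, 7.45 for WNT10A, 5.27 for WNT10B, 3.50 for RSPO3 and 5.11 for SOST and adjusted p from 0.0662 to 0.162. Without any one IP replicate all counts of calls were 0 and the log2 fold changes ran from 7.39 to 7.58 for WNT1, 4.54 to 4.90 for WNT4, 7.47 to 7.69 for WNT10A, 5.11 to 5.47 for WNT10B, 3.41 to 3.57 for RSPO3 and 5.07 to 5.14 for SOST, with fewer samples in the fit. With the files as the labels tie them, all counts were 0 (1266 features but none of the 6 genes at an unadjusted p under 0.05) and log2 fold changes turned to -0.365 for WNT1, -1.14 for WNT4, -0.653 for WNT10A, -1.15 for WNT10B, -0.804 for RSPO3 and -0.611 for SOST, since another library is then the input. Among the other genes they turned to -1.24 for RSPO1, -0.303 for WNT2B, 0.702 for CTNNB1, -0.876 for APCDD1, -0.525 for CELSR1, -0.532 for VANGL2, 0.353 for PRICKLE2, -0.510 for FZD3, 0.555 for FZD1, 0.415 for LRP5, 1.17 for LGR5, -0.724 for DRAXIN, -0.365 for WIF1, 0.630 for DKK3 and -0.174 for ATOH1. Each transcript on its own gave 9 WNT list genes higher and 1 lower, against 14 and 4, and a log2 fold change of 5.27 for WNT10B that missed the threshold. limma-trend gave 9 higher at either pseudocount of TPM (1 or 0.1) with fold changes of the 6 genes no larger than 4.70 at a pseudocount of 1 and 6.62 at 0.1, and DESeq2 7 lower with or without the length offset. The count of all features called, 1653, became 9573 and 9617 with DESeq2 without and with the offset, 3018 with at least 50 counts in 2 libraries, and 3331 and 2810 with limma-trend at pseudocounts of 1 and 0.1, and the cause was not tested. On the TPM scales the median over all features was -0.209 and -0.367, against 0.0982, and with limma-voom -0.114. No paired analysis was possible because there is only 1 input library. Depth limits WNT10A and WNT1 most, at 4 and 12 input reads, and a single input gives no spread of its own.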
